A study of Drosophila melanogaster with 2 samples.

Results

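Divergent promoters are stretches of DNA that lie between the start sites of a pair of genes read in opposite directions. The binding map described here is chromatin immunoprecipitation followed by sequencing (ChIP-seq) of Slp2, a forkhead domain transcription factor of the sloppy-paired locus, in 1 group of 2 samples of whole Drosophila melanogaster embryos aged 0 to 24 hours, numbered 2 and 3 as biological replicates. Both samples came from transgenic flies of strain 9T-GFP with an insertion that targets slp2, in which Slp2 carries enhanced green fluorescent protein at its C-terminus, and the fusion protein was pulled down with an antibody against GFP from pooled male and female embryos (the labels' antibody field reads slp2). No other genotype, stage or treatment and no control library enters these results. Members were taken from the authors' IDR list (build dm6). IDR sets a threshold by the reproducibility of ranks between replicates, and this list equals the 3203 strongest rows of the authors' pooled list. A member was an IDR peak with its summit within 500 bp of annotated transcription start sites (TSSs) of at least 2 protein-coding genes. These genes had to lie on opposite strands. The rule used positions and no signal value, and it took 609 of the 3203 IDR peaks. A further 1022 summits lay within 500 bp of TSSs of 1 strand only and are called one-direction promoter peaks, and 1572 lay at no promoter. The IDR list itself held 11.2% of the 28637 peaks of the authors' relaxed pooled list.

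The fly genome is compact, and many of its genes share a short upstream region with a neighbour that is read the other way. Head-to-head genes of this kind often encode parts of the machinery that most cells use, such as ribosomal proteins. Their promoters tend to carry sites for DREF, a factor of cell proliferation genes, for the boundary protein BEAF-32 and for M1BP, in place of the TATA box that marks many tissue-specific genes. Forkhead domain proteins such as Slp2 bind a short core of the form TGTTTAC, and Slp2 is known for its roles in segmentation and in the identity of neural stem cells of the embryo. The samples are whole embryos of mixed stages, so no result below is assigned to a cell type.

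The stretches between the start sites of the strongest members are shown first, because these are the shared promoters on which the summits fell. Shown are the 6 strongest members outside the arms left out of sequence display whose stretch holds no annotated exon, read from the Release 6 assembly (dm6). Capitals mark matches, on either strand, to the forkhead consensus TGTTTAC, the DREF site TATCGATA, the BEAF-32 core CGATA, the E-box CAGCTG of core promoter motif 5, and the cores of core promoter motifs 1 (GGTCACAC), 6 (GTATTTTT) and 7 (CATCNCTA).
Chro/Ssl1 (chr3L:22878985-22879088, plus strand): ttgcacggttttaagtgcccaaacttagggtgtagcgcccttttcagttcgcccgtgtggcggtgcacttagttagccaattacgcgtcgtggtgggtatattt
Art3/mRpS10 (chr3R:15229409-15229664, plus strand): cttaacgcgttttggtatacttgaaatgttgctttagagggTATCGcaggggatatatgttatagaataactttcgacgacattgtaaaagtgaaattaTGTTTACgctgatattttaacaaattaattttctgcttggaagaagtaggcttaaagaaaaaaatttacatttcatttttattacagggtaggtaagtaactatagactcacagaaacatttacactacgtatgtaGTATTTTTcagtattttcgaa
mRpS23/CenG1A (chr2L:13835264-13835563, plus strand): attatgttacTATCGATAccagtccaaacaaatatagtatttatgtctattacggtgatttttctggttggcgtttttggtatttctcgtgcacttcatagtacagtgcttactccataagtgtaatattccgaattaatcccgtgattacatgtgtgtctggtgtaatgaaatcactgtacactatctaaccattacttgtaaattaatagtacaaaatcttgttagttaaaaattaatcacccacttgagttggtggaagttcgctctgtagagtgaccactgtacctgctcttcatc
Tcs5/CHMP2B (chr3L:5139396-5139618, plus strand): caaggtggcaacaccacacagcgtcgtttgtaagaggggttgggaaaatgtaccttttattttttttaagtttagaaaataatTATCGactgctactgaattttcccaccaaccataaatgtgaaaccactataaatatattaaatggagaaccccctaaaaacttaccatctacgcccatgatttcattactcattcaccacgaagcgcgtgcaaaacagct
Atat/Shc (chr3L:9426759-9427009, plus strand): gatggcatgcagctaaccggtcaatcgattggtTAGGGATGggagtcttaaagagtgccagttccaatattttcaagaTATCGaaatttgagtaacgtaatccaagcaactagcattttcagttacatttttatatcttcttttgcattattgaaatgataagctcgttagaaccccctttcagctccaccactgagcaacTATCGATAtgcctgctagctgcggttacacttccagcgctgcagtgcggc
CG8372/CG8360 (chr2L:8212903-8212958, plus strand): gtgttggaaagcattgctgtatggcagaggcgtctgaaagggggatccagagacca
The stretch of mRpS23/CenG1A is the 300 bases nearest to the summit, since its start sites are 492 bp apart. A forkhead match stood in 1 of these 6 stretches, that of Art3/mRpS10. The 6 stretches otherwise held BEAF-32 cores in 4, a full DREF site in 2, and the core of motif 6 (Art3/mRpS10) and of motif 7 (Atat/Shc) in 1 each, and those of Chro/Ssl1 and CG8372/CG8360 held no match. The summits of these last members lay outside the stretch, 107 bp into the Chro gene and 49 bp into CG8360.

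For the DREF, BEAF-32, E-box and motif 7 letters, each of which over 10% of the members carried within 100 bp of the summit, the strongest further member with a match between its start sites is shown as 60 bases around that match. They follow in that order.
Gmd/CG3792 (chr2L:4977024-4977083, plus strand): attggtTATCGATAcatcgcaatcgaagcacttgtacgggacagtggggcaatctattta
CG7601/CIA30 (chr3R:29736889-29736948, plus strand): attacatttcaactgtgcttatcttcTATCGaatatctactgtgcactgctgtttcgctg
CG3437/CG3552 (chr3L:9457852-9457911, plus strand): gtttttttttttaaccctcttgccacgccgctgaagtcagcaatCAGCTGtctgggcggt
CG1105/CG1965 (chr3R:7067137-7067196, plus strand): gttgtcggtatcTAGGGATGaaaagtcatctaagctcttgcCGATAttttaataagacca
The BEAF-32 core lies inside the DREF site, so every DREF match in Gmd/CG3792 is also a BEAF-32 match.

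The strongest member was the promoter that Chro shares with Ssl1, with its summit at chr3L:22878877. Chro encodes Chromator, a chromatin protein of decondensed regions, and Ssl1 encodes a subunit of the general factor TFIIH. Its signal value, the score that the authors' peak caller gave, was 501 in replicate 2 and 571 in replicate 3, and 1074 in the pooled list, where it ranked 5 of 3203. Both replicates placed it among their strongest peaks, at rank 7 in replicate 2 and rank 5 in replicate 3. The promoter of Art3, an arginine methyltransferase gene, and mRpS10, a gene of the mitochondrial ribosome, had a signal of 427 in replicate 2 and 474 in replicate 3 (summit chr3R:15229532, pooled rank 11). Its start sites are 257 bp apart, and the summit lay almost at their middle, 124 bp upstream of Art3 and 133 bp upstream of mRpS10. A second gene of the mitochondrial ribosome, mRpS23, shares its promoter with CenG1A, which encodes a GTPase activating protein (pooled rank 16, spacing 492 bp). There the summit lay 101 bp upstream of CenG1A and 391 bp upstream of mRpS23, with a signal of 362 in replicate 2 and 389 in replicate 3.

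Replicate signals were close to each other at most of the 15 strongest members. Tcs5/CHMP2B, a tRNA modification gene beside a gene of the ESCRT-III membrane machinery, had 322 in replicate 2 and 408 in replicate 3. RpS27/Nup37, a ribosomal protein gene beside a nuclear pore gene, had 204 in replicate 2 and 317 in replicate 3. The widest gap among the 15 was at Atat/Shc, a tubulin acetyltransferase gene beside a signalling adaptor gene, with 232 in replicate 2 (rank 69) and 451 in replicate 3 (rank 11). Replicate 2 had the lower signal at each of the 15 except Fbw5/CG9147 and CG3437/CG3552, where replicate 3 did. The others were Pdrg1/Pal1, CG5757/CG5098, CG8372/CG8360, tank/CG12194, CG7601/CIA30, Mkk4/SLIRP2 and Bdp1/CG6565, with pooled signals between 481 at Bdp1/CG6565 and 755 at Pdrg1/Pal1. Bdp1 encodes a subunit of the RNA polymerase III factor TFIIIB and Mkk4 a kinase of the JNK pathway. Over all 609 members the pooled signal ran between 65.4 and 1074 with a median of 102.

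Divergent promoters made up 37.3% of the promoter peaks of the IDR list (609 of 1631, 95% Wilson interval 35.0 to 39.7) and 19.01% of all IDR peaks (17.7 to 20.4). Such intervals treat peaks as independent and cover counting error only, and no p-value is given because the peaks of 1 group are not replicates. The same rule, applied to every base of the 6 chromosome arms, was met by 1674757 bases, which are 10.9% of all bases within 500 bp of a TSS and 1.25% of the arms. The share of members among IDR peaks was thus 15.2 times their share of bases, against 3.13 times for one-direction promoters. Each replicate gave a like share in its own 3203 strongest peaks, 34.0% of promoter peaks in replicate 2 (536 of 1576, 31.7 to 36.4) and 39.8% in replicate 3 (652 of 1637, 37.5 to 42.2). The share was higher in replicate 3.

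In sets of 3203 ranks, the share of divergent promoters was highest in the strongest set of all 3 lists. It came down toward the weak end. Among promoter peaks of the pooled list it was 37.3% in the first 3203 ranks, 31.5% in the next and 23.7% in the third such set, and 10.6% in the last, which is close to the 10.9% of promoter bases. In replicate 2 it was 34.0% in the strongest set and 19.6% among all weaker promoter peaks, and in replicate 3 it was 39.8% in the strongest set and 17.6% among the weaker. The authors' IDR threshold kept 33.3% of the pooled peaks at divergent promoters (609 of 1829, 31.2 to 35.5), 16.9% of those at one-direction promoters (1022 of 6062) and 7.58% of those elsewhere (1572 of 20746). As the IDR list equals the 3203 strongest pooled rows, these shares restate the pooled ranking and do not measure reproducibility by class. Within the IDR list itself, in sets of 400 ranks, the share of divergent promoters showed no steady fall. It was 36.3% of promoter peaks at ranks 1 to 400, 43.9% at ranks 1601 to 2000 and 32.2% at ranks 2801 to 3203. The order of the classes by rank within the IDR list was not stable. The median rank was 1595 for members and 1528 for one-direction promoter peaks in the pooled list, 1766 for members and 1528.5 for one-direction promoter peaks in replicate 2, and 1292 for members and 1538 for one-direction promoter peaks in replicate 3. With a limit of 250 bp it was 1462 for members and 1670 for one-direction promoter peaks. Among the 100 strongest peaks 27 were members and 36 were one-direction promoter peaks.

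**Figure D1:**
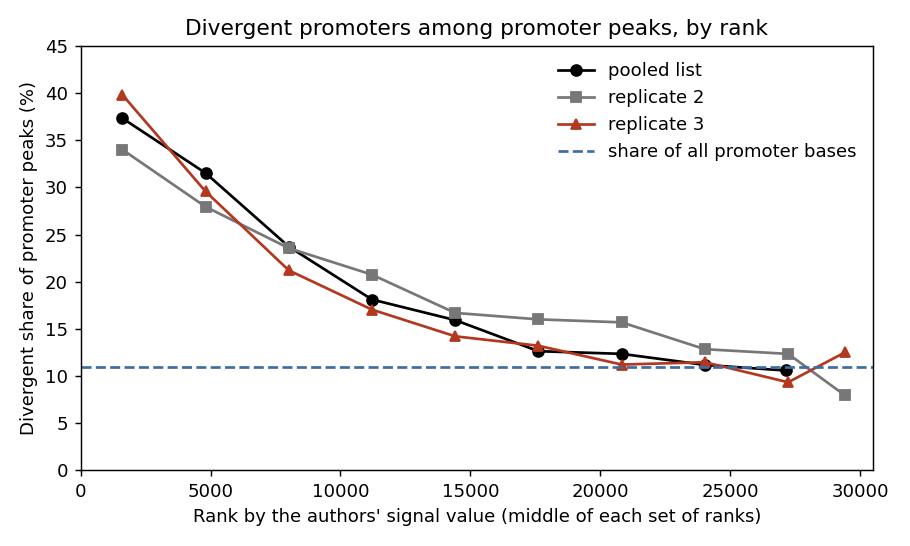
Share of promoter peaks that lie at divergent promoters (vertical axis, %) against the rank of the peaks by the authors' signal value, in sets of 3203 ranks (horizontal axis, middle of each set), for the pooled list and each replicate. The share starts at 34.0% in replicate 2, 39.8% in replicate 3 and 37.3% in the pooled list and comes down to about the 10.9% of promoter bases (dashed line) at the weak end.

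Seen from the genes, 610 of the 2615 annotated head-to-head pairs with start sites at most 1000 bp apart had a member summit near both genes (23.3%, 21.7 to 24.99). The spacing of a pair is that of its closest start sites, which need not be those near the summit. Pairs with an intermediate spacing had a member summit most often. The share was 23.9% at a spacing of 1 to 100 bp (100 of 419), 24.9% at 101 to 200 bp (88 of 354), 37.2% at 201 to 300 bp (197 of 529) and 33.2% at 301 to 400 bp (131 of 394). It was 22.2% at 401 to 500 bp and 10.1% at 501 to 700 bp, and 1 of 306 wider pairs had a summit that met the rule. Wide pairs leave less room for a summit within 500 bp of both start sites, a median of 945 bp at the closest spacings and 416 bp at 501 to 700 bp. This room was taken from the closest start sites alone, so genes with further start sites had more. Per 1 kb of this room, the number of bound pairs per pair was 0.253 at 1 to 100 bp, 0.499 at 201 to 300 bp and 0.508 at 301 to 400 bp, and the part of the room in the pattern was not tested. In replicate 2 the share was 20.05% at 1 to 100 bp and 34.0% at 201 to 300 bp, and in replicate 3 it was 24.3% and 38.8%. Among members, the start sites nearest the summit were a median of 278 bp apart, counted per peak (quartiles 206 and 376). Pairs without a member had a median of 329 bp between their closest start sites, counted per pair (168 and 569). These medians are unlike measures, and the rule leaves out most wide spacings among members only.

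**Figure D2:**
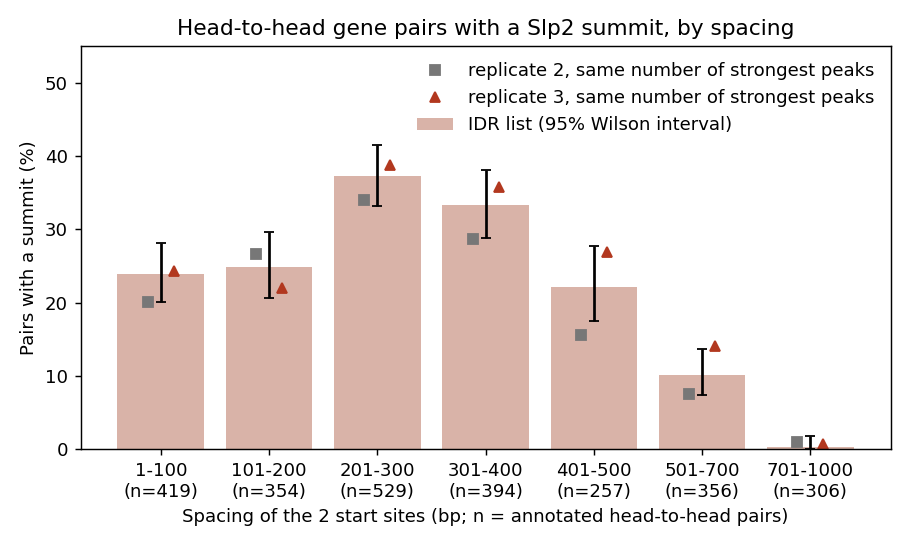
Share of annotated head-to-head gene pairs with a summit within 500 bp of a start site of each gene (vertical axis, %). The horizontal axis gives the spacing in bp of the closest start sites of the pair, which need not be those near the summit. Bars show the IDR list with 95% Wilson intervals, and symbols show the 3203 strongest peaks of each replicate; pairs spaced 201 to 300 bp have the tallest bar at 37.2%.

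The summit usually fell inside the shared region. Of the 609 members 601 had a head-to-head arrangement, and in 498 of these the summit lay between the start sites (82.9%, 79.6 to 85.7). The share was 76.4% in replicate 2 (405 of 530) and 84.3% in replicate 3 (541 of 642). The rule sets part of this share, since it leaves less room outside the start sites as their spacing grows. The summit leaned to neither strand, with the minus-strand gene the nearer one in 280 of 601 (46.6%, 42.6 to 50.6). The nearer start site was a median of 74 bp away for members and 160 bp for one-direction promoter peaks, and 65.4% of members (398 of 609) lay within 100 bp of it, against 34.2% of one-direction promoter peaks (350 of 1022). Part of this gap follows from the rule, which asks for start sites on both strands and takes the nearer. The nearer site had the summit upstream of it in 82.8% of members and 83.5% of one-direction promoter peaks.

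Position changed with the spacing of the pair, in part through the rule itself. Beyond a spacing of 500 bp, a summit within 500 bp of both start sites must lie between them. How much of the change the rule sets was not tested. Where the start sites were at most 100 bp apart the summit lay between them in 37.1% of 70 members, and otherwise downstream of one of the start sites. The share was 67.6% of 71 members at 101 to 200 bp, 88.6% of 211 at 201 to 300 bp and 93.3% of 134 at 301 to 400 bp. The distance to the nearer start site had a median of 35 bp at the closest spacings, 74 bp at 201 to 300 bp and 155 bp at 501 to 700 bp. The median distance of the summit from the midpoint was 54.8 bp at 1 to 100 bp, 40 bp at 101 to 200 bp, 52.5 bp at 201 to 300 bp, 87.8 bp at 301 to 400 bp, 138 bp at 401 to 500 bp and 120.5 bp at 501 to 700 bp. Signal did not follow the spacing, with medians between 94.1 and 109 over the spacings up to 700 bp.

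**Figure D3:**
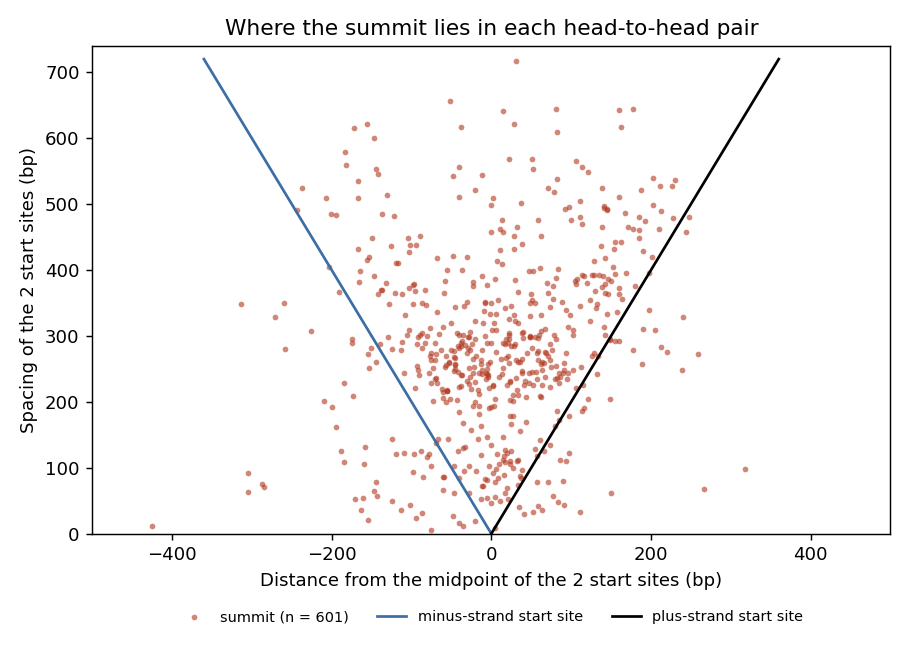
Position of the summit in the 601 head-to-head members, as the distance from the midpoint of the start sites in bp (horizontal axis, plus-strand gene to the right), against the spacing of the start sites in bp (vertical axis). The lines mark the start sites; 498 summits lie between them, and most of those outside belong to pairs whose start sites are at most 200 bp apart.

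The extremes of the arrangement were CG3032/CG4593, with start sites 6 bp apart and the summit 72 bp inside CG3032, and CG2246/CG31021, with start sites 717 bp apart and the summit 389 bp from one and 328 bp from the other. Most members, 579 of 609, had exactly 2 genes within 500 bp. The member with the most, 10, lies in the mod(mdg4) locus (rank 431, signal 95.8 in replicate 2 and 108 in replicate 3), where the annotation lists separate gene models for precursor RNAs that are joined by trans-splicing, so these are not 10 independent promoters. The others with the most genes were PIG-M/NC2alpha with 5 and CG31650/CG33995 with 4. NC2alpha encodes a repressor of the basal transcription machinery.

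At the limit of 500 bp the choice of members rests on a few bases. Just inside, the farther start site lay 499 bp from the summit at Syx16/HERC2 and at Gnpat/CG5112 and 498 bp away at Mpc1/CG42613. Their pooled signals were 94.3, 91.3 and 103. Just outside, it lay 506 bp away at Tsp42Ee/Tsp42Ed, 509 bp at app/CG32100 and 510 bp at Fatp1/Lrr47, with signals of 69.4, 140.3 and 68.5. In all, 140 of the 1022 one-direction promoter peaks had an opposite-strand TSS within 1000 bp.

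Members and one-direction promoter peaks differed in how the replicates shared the signal. The log2 ratio of the replicate 3 signal over the replicate 2 signal had a median of 0.08 at 603 members (quartiles -0.30 and 0.52), against -0.18 at 1001 one-direction promoter peaks (-0.61 and 0.19) and -0.21 at 1544 peaks away from promoters. The SD of the ratio was 0.69 in both promoter classes, so the classes overlapped widely. Accordingly 89.3% of members (544 of 609) but 81.7% of one-direction promoter peaks stood among the 3203 strongest peaks of replicate 3, whereas in replicate 2 it was 76.5% of members (466 of 609) and 82.8% of one-direction promoter peaks. Both replicates' strongest sets held 67.2% of members and 67.3% of one-direction promoter peaks. With 1 sample on each side of this ratio, the difference has no replicate check, and whether it came from the embryos or from the libraries cannot be told apart.

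**Figure D4:**
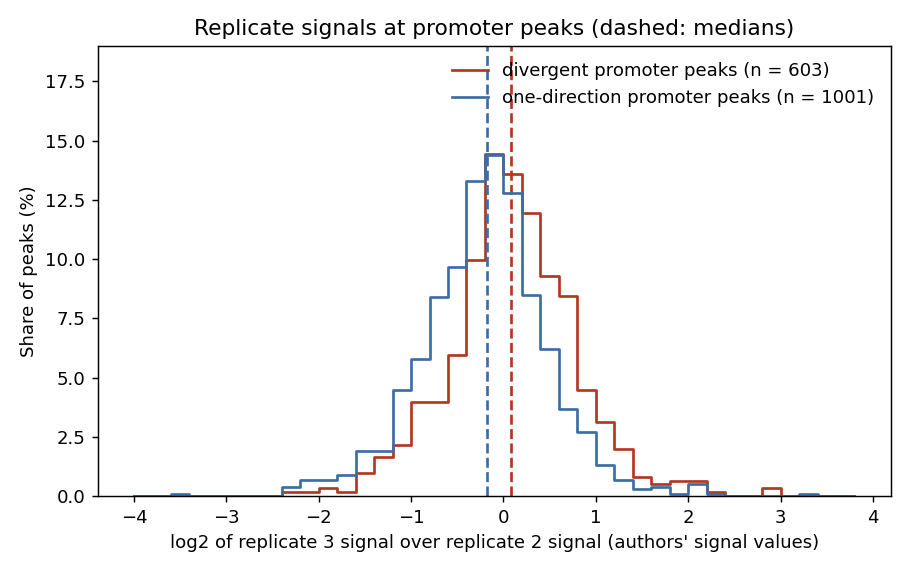
Share of peaks (vertical axis, %) by the log2 ratio of the authors' signal value in replicate 3 over replicate 2 (horizontal axis), for members and one-direction promoter peaks of the IDR list that have a peak within 200 bp in each replicate. Dashed lines mark the medians, 0.08 for members and -0.18 for one-direction promoter peaks.

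The 5 members whose replicates differed most show how far the signals of single summits could differ between replicates. Brf/sds22, where Brf encodes another TFIIIB subunit, had a signal of 9.46 in replicate 2 (rank 29902) and 75.6 in replicate 3 (rank 744). This summit lay 202 bp from a stronger member at the same gene pair, which ranked 224. That stronger member had close signals, 134 in replicate 2 and 136 in replicate 3, so the promoter as a whole did not differ in this way. The promoter of mor, a subunit gene of the Brahma chromatin remodelling complex, and the helicase gene Hel89B had 9.96 in replicate 2 and 70.4 in replicate 3. Spn88Eb/Mau2 had 13.1 in replicate 2 and 61.2 in replicate 3, and Vrp1/mei-S332 had 13.8 and 61.3 in the same order. At Sfp24F/CG15432 the order was turned round, with 66.3 in replicate 2 and 13.8 in replicate 3. All 5 were weak in the pooled list, at ranks between 1984 and 3051.

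Of 13945 protein-coding genes, 1197 had a member within 500 bp of a TSS, which is 8.58%. Genes of ribosomes had a higher share. Of 85 cytosolic ribosomal protein genes 30 had a member (35.3%, 26.0 to 45.9), with 28 in replicate 2 and 30 in replicate 3 from their own strongest peaks, and of 73 mitochondrial ribosomal protein genes 21 did (28.8%, 19.7 to 40.01), with 22 in each replicate. Many ribosomal protein genes stand head to head with a neighbour, 52 of the 85 and 58 of the 73, against 4958 of all 13945 genes (35.6%). Among genes in such pairs, a member was present at 57.7% of the cytosolic and 36.2% of the mitochondrial ribosomal protein genes, against 23.4% of all. Peaks at cytosolic ribosomal protein genes were not limited to divergent promoters: 64 of the 85 had any IDR summit within 500 bp of a TSS (75.3%), against 2120 of all genes (15.2%), and 34 of the 64 had no member. For the mitochondrial list it was 24 of 73, of which 3 had no member. The strongest members at cytosolic ribosomal protein genes were those of RpS27 (rank 45), RpL7 (rank 71, beside Ripalpha) and RpL14 (rank 185), and at mitochondrial ones those of mRpS10, mRpS23 and mRpL23 (rank 77).

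Other lists of widely used genes ranged from near the 8.58% of all genes to above it. Among genes in head-to-head pairs, the lists named next ran from 21.4% to 30.4%, against 23.4% of all paired genes. These shares rest on 23 to 54 paired genes per list and carry no intervals, so no list is set apart from that 23.4%. That share was 24.1% for the spliceosome, 23.1% for DNA replication, 21.4% for translation factors, 29.2% for the proteasome, 29.6% for the general transcription machinery, 30.2% for the respiratory chain and 30.4% for aminoacyl-tRNA synthetases. The general transcription machinery had 17 of 81 genes with a member (21.0%, 13.5 to 31.1), led by MED30 and MED27 of the Mediator complex and the RNA polymerase subunit gene Polr2H. Its count was 11 in replicate 2 and 18 in replicate 3. The aminoacyl-tRNA synthetases, which charge tRNAs, had 7 of 33 with SerRS, ArgRS and IleRS as the strongest, and the spliceosome list had 7 of 33 with Prp31, U2af50 and SmD3, and 4 from replicate 2 alone. Translation factors were close to the background at 6 of 60 (10%), with eIF1, eIF4EHP and eIF3m. Respiratory chain and ATP synthase genes had 13 of 87 (14.9%), led by the complex I genes ND-MWFE and ND-ASHI and by COX5A. Proteasome subunit genes had 7 of 48, led by Rpn5, Rpn3 and Rpn6, but 9 of 48 in replicate 2 and 3 of 48 in replicate 3. DNA replication genes had 6 of 40, led by PolD2, dup and RnrS, but 1 with a limit of 250 bp, and the mitochondrial import list had 2 of 18, Tom7 and Tim10, and 1 from replicate 3 alone. The intervals of these smaller lists are wide, such as 7.06 to 29.1% for DNA replication.

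Genes for insulator and promoter proteins had a member at 6 of 24 (25%, 12.0 to 44.9), against 8.58% of all genes, with 5 in replicate 2 and 6 in replicate 3. The list named 31 genes, of which 24 were found by name. Among its genes in head-to-head pairs 6 of 13 had a member (46.2%), against 23.4% of all paired genes, with no interval given. Any IDR summit within 500 bp of a TSS was present at 12 of the 24 (50%), against 15.2% of all genes. Of these 12, 6 had no member. Those with a member were Chro, Dref, Cp190, M1BP, pzg and Rcd5, of which M1BP, pzg and Rcd5 are named because the count is small and were chosen after their values were seen. Dref encodes the factor DREF itself and shares its promoter with RpL13, 84 bp away (rank 315, signal 134 in replicate 2 and 96.4 in replicate 3). Cp190 encodes a partner of insulator proteins and stands beside CG4338 (rank 815, signal 75.8 in replicate 2 and 69.2 in replicate 3). Dref/RpL13 and RpL28/eIF1 were the pairs with a member in which both genes stood on a list. In the second, RpL28 and the translation initiation gene eIF1 start 381 bp apart, with the summit 58 bp upstream of RpL28.

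Lists of developmental regulators and of genes used by few tissues had next to no members, and few of their genes stand head to head. Of 32 segmentation genes 1 had a member, smo, the Hedgehog signal transducer gene, which is also the only one of them in a head-to-head pair (rank 1382, signal 63.7 in replicate 2 and 47.9 in replicate 3), and which had none with a limit of 250 bp. None of 8 Hox genes and none of 17 forkhead genes had one, and 0 and 1 of these genes stand in a head-to-head pair. The segmentation list named 35 genes and the forkhead list 21, of which 32 and 17 were found by name. Any IDR summit within 500 bp of a TSS was present at 3 of the 17 forkhead genes (17.6%) and 3 of the 32 segmentation genes (9.38%). Over all genes it was 15.2%. Cuticle protein genes (0 of 125, 11 in such pairs) and odorant and gustatory receptor genes (0 of 119, 15 in such pairs) had no member. The upper Wilson bounds over all genes of these lists were 2.98% and 3.13%. Such bounds say little about the few genes of each list that stand in pairs.

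Intervals at members and one-direction promoter peaks did not overlap for the DREF, BEAF-32, E-box, motif 7, TATA box and GAGA letters. The same held for the core GGTCACAC. Of these, only GAGA was less frequent at members. The intervals of the forkhead site, the motif 6 core and the initiator overlapped. The forkhead consensus TGTTTAC lay within 100 bp of the summit in 9.03% of members (55 of 609, 7.00 to 11.6) and 7.24% of one-direction promoter peaks (74 of 1022, 5.81 to 8.99). It was present at 7.53% of midpoints of head-to-head pairs without a member, at 6.60% of all gene 5′ ends and in 4.60% of windows 700 bp to each side of the members' summits. The summit windows held a median of 64.7% A and T and these flanking windows 48.8%, a difference whose part in the result was not tested. The shorter form TGTTTA was found in 28.9% of members and 26.4% of one-direction promoter peaks. The stronger members, those among the 1601 strongest IDR peaks, carried the full consensus in 6.54% (4.27 to 9.88), no more than members overall.

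The DREF site TATCGATA was present in 11.5% of members (70 of 609, 9.20 to 14.3), against 5.48% of one-direction promoter peaks (56 of 1022, 4.24 to 7.05) and 0.318% of peaks away from promoters. The BEAF-32 core CGATA, which includes all DREF matches, was present in 46.1% of members (42.2 to 50.1) and 33.6% of one-direction promoter peaks (30.7 to 36.5). The E-box CAGCTG was present in 17.4% of members and 8.51% of one-direction promoter peaks, and the core of motif 7 in 11.5% and 6.46%. In the other direction, the GAGA site GAGAG, bound by the factor Trl, was present in 13.1% of members (10.7 to 16.1) and 26.3% of one-direction promoter peaks (23.7 to 29.1). All gene 5′ ends held the DREF site in 7.84%, the BEAF-32 core in 39.4%, the E-box in 13.8% and GAGA in 22.5%. One-direction promoter peaks thus lay below gene 5′ ends for DREF, BEAF-32 and the E-box and above them for GAGA. Their summits also lay farther from the start site than those of members, and the part of this distance in the shares was not tested. Each replicate's own strongest peaks showed the same orders of divergent and one-direction promoters. For DREF the share was 11.8% at divergent and 4.42% at one-direction promoters in replicate 2, and 9.82% and 5.38% in replicate 3. For GAGA it was 12.9% and 28.8% in replicate 2, and 13.5% and 23.5% in replicate 3. The TATA box letters TATAAA were found in 36.5% of members (32.7 to 40.3) and 28.2% of one-direction promoter peaks (25.5 to 31.0). Midpoints of head-to-head pairs held them in 39.7% with a member and 39.95% without, and all gene 5′ ends in 29.2%. Members thus did not hold fewer TATA letters, unlike the tendency described above for such promoters. The part of A and T content in these shares was not tested. The initiator letters TCAGT were found in 27.9% of members (24.5 to 31.6) and 34.1% of one-direction promoter peaks (31.3 to 37.1). The core of motif 6 was found in 7.39% of members (5.57 to 9.74) and 4.79% of one-direction promoter peaks (3.65 to 6.28).

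Head-to-head pairs with and without a member had close shares of most of these motifs. The BEAF-32 core lay at 42.1% of midpoints of pairs with a member and 40.8% of those without. For the DREF site it was 9.18% with and 8.38% without, for the E-box 14.8% with and 12.0% without, and for GAGA 13.4% with and 14.7% without. The core of motif 7 differed, with 8.69% at midpoints of pairs with a member (6.70 to 11.2) and 4.34% at those without (3.53 to 5.32), and 5.14% of all gene 5′ ends held it. Weaker pooled peaks at divergent promoters, below the IDR threshold, carried the DREF site in 11.3%, the BEAF-32 core in 48.9% and the forkhead consensus in 8.44%, shares close to those of the members. The core of motif 1, the site of M1BP, was in 6.24% of members (4.58 to 8.45) and in 10.2% of these weaker peaks. At one-direction promoter peaks it was in 3.23% (2.31 to 4.50). Motifs were searched by their letters on both strands, so a match is a description and not a bound site.

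**Figure D5:**
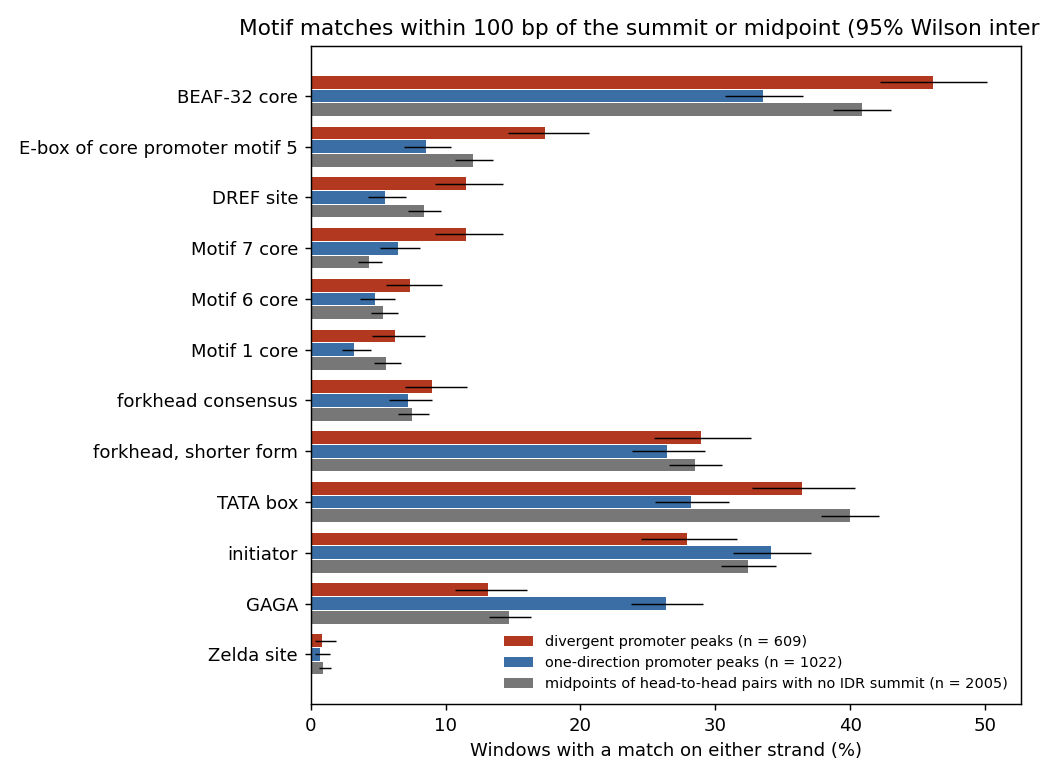
Share of windows with a motif match on either strand within 100 bp (horizontal axis, %, with 95% Wilson intervals) at members, at one-direction promoter peaks and at midpoints of head-to-head pairs without a member. DREF, E-box and BEAF-32 matches are more frequent at members than at one-direction promoter peaks and GAGA matches less frequent (13.1% and 26.3%), while the forkhead consensus has overlapping intervals.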

How the data were processed

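ChIP-seq of Slp2-eGFP was run on 2 embryo samples (biological replicates 2 and 3), with chromatin sheared to 200 to 800 bp, per the labels. The authors deposited a relaxed peak list for each replicate, 1 for the pooled data and the IDR list derived from them, per the deposited readme files. The signal values are scores that the authors' peak caller gave on a scale the sources do not name, and were used to rank peaks and to compare a peak between replicates. The deposited −log10 q value was not used to rank. The IDR list equals the 3203 strongest rows of the pooled list, so its signals have no error of their own. The relaxed lists end at 30000 rows per replicate. The aligner, caller, IDR threshold and read numbers are not given in the sources used here, so depth is unknown, and the control was not analysed here.

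Summits were set against 19607 TSSs of 13945 protein-coding genes (Ensembl release 115, BDGP6.54) on 6 arms of dm6. A replicate peak was matched to a member within 200 bp, and the nearest was taken; 603 of 609 members had one in replicate 2 and 609 in replicate 3. Pairs were all opposite-strand genes with TSSs at most 1000 bp apart, and their closest TSSs set their spacing. Motifs were searched in windows of 201 bp. No test was run, and shares carry 95% Wilson intervals (Python 3.11.15, scipy 1.17.1). The members, gene lists and motifs were chosen with earlier results of these data known. The classing and search were tested on simulated data.

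Genes were named by rule: those of the 15 strongest members, of the 3 nearest to the limit on each side, of the 3 with the most genes, of the smallest and largest spacing, of the 5 whose replicates differ most, up to 3 per list, and those of printed sequences. Sequences came from the Release 6 assembly; arm 2R, spacers with an exon or under 40 bases, and the GAGA, TATA, initiator and short forkhead motifs were left out of that choice. Alternatives changed the TSS distance, the TSS set, the overlap, the replicate, the peak strength and the motif window.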

Additional observations from a re-analysis of the deposited data

How the results depend on the processing

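Of 79 alternative values for the main results, 41 stayed within the spread between replicates or within 1.5 times the count, and 38 moved. No single value reversed, but the order of members and one-direction promoter peaks by median rank did. The 79 include values from 1 replicate at a time, some of which also set that spread, so the 41 are not all separate checks. With a limit of 250 bp there were 382 members, 28.8% of promoter peaks, with 788 genes and 16 cytosolic ribosomal protein genes; with 1000 bp the last count was 47. The share of promoter bases that meets the rule was 6.27% at 250 bp, 16.4% at 1000 bp and 12.8% with only the 5′ end of each gene model, below the share of peaks in each case. With only those 5′ ends members made up 41.7% of promoter peaks and 75.9% of head-to-head summits lay between the start sites. The 1601 strongest IDR peaks held 306 members with a median rank of 730, against 727.5 for one-direction promoter peaks, and the medians were 1462 for members and 1670 for one-direction promoter peaks at 250 bp, and 1578 and 1551 at 1000 bp. At 250 bp the DNA replication list had 1 gene with a member and the segmentation list 0.

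Motif shares at members followed the window. With 50 bp to each side the shares were 3.94% (forkhead), 5.91% (DREF), 27.4% (BEAF-32), 6.40% (E-box), 6.08% (motif 7) and 6.57% (GAGA), and with 200 bp they were 17.4%, 18.9%, 66.5%, 34.8%, 20.4% and 25.3% in the same order. The order of members and one-direction promoter peaks was unchanged for these 6 motifs at both widths. Stronger members had 6.54% (forkhead), 40.2% (BEAF-32), 18.6% (E-box), 8.82% (motif 7) and 12.7% (GAGA).

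With the IDR members kept and their summits taken from 1 replicate at a time (not from that replicate's own strongest peaks, as in the values by replicate above), the values ran from 10.02 to 11.4% for DREF, 46.1 to 47.0% for BEAF-32, 16.3 to 17.2% for the E-box, 12.1 to 12.5% for motif 7 and 12.1 to 12.2% for GAGA, 77.9 to 83.3% for summits between the start sites, 1292 to 1766 for the median rank of members and 1528.5 to 1538 for that of one-direction promoter peaks, so members ranked behind in replicate 2 and ahead in replicate 3. No paired analysis was possible because there is 1 group and no test. Unknown depth limits what can be said of weak peaks and of pairs with no summit.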

Other observations

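The arms differed in how often a peak lay at a divergent promoter. Members made up 24.1% of the IDR peaks on arm 3R (182 of 755) and between 18.5% and 19.8% on arms 2L, 2R and 3L, against 11.8% on the X chromosome (71 of 602) and 1 of 14 on chromosome 4. The X chromosome was also the lowest of the 5 large arms in each replicate, with 10.2% in replicate 2 and 12.4% in replicate 3. Head-to-head pairs with a member were 28.8% of the pairs on arm 3R (194 of 674, 95% Wilson interval 25.5 to 32.3) and 17.3% on the X chromosome (68 of 392, 13.9 to 21.4).

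A head-to-head pair or another opposite-strand pair had more than 1 member in 31 cases, among them Irbp18/APP-BP1 and RpL32/CG7943, which were chosen after their values were seen. The summits of such members were a median of 202 bp apart and never closer than 199 bp. Member peaks had a median width of 404 bp, and the part of the peak calling in this distance was not tested. Another IDR summit lay within 250 bp of 9.20% of members (56 of 609), against 9.78% of one-direction promoter peaks. A start site of a noncoding gene lay within 500 bp of 1.31% of members and 6.16% of one-direction promoter peaks. Genes of head-to-head pairs with a member spanned a median of 2454 bp, against 2208 bp for those without.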
